A study of Mus musculus with 24 samples.

Results

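The 8 genes *Hmgcs1*, *Idi1*, *Fdps*, *Fdft1*, *Sqle*, *Cyp51*, *Dhcr7* and *Insig1* of cholesterol synthesis and its control were followed through 24 RNA libraries of *Cep135* mutant and control mouse embryos. They were taken by symbol from a table of 54658 genes, and all 8 were found and had a mean of at least 10 normalized read counts at every stage. The set was named for synthesis and uptake, but 7 of its genes encode enzymes of synthesis, *Insig1* encodes a regulator, and none encodes an uptake receptor. *Srebf2*, which encodes the transcription factor SREBP2, is given beside them.

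The dorsal telencephalon of 12 embryos was sequenced, from 3 *Cep135*(Δ8/Δ8) and 3 *Cep135*(+/+) embryos at E11.5 and 3 of each at E14.5. *Cep135* encodes a centriole protein, and the mutants, written as Cep135 (-/-) in the labels, carry a deletion of 8 base pairs in exon 2 that was made with CRISPR/Cas9 in zygotes of B6.CBA matings and kept on a C57BL/6J background. The deletion is constitutive and is not limited to neural cells. Cells of the 6 E14.5 cortices were also dissociated with papain and kept in suspension for 12 or 24 hours as incipient neurospheres, in DMEM/F12 with N2, B27, heparin, EGF and FGF2, and no drug was given to any group. E14.5 embryos 1, 2 and 6 were mutants and 3, 4 and 5 controls, and a culture and a cortex with the same number came from the same animal. The E11.5 embryos are called mutants 1 to 3 and controls 1 to 3. The cortex of mutant 6 carries both ages in its labels and was taken as E14.5 from its title.

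Mammalian cells build cholesterol from acetyl-CoA through mevalonate, isoprenoid pyrophosphates, squalene and lanosterol. When the membranes of the endoplasmic reticulum hold little cholesterol, the escort protein SCAP carries the transcription factor SREBP2 to the Golgi, where proteases release its active part, and the genes of synthesis and uptake are transcribed. INSIG proteins hold SCAP back when sterols are plentiful, and *Insig1* is itself a target of SREBP. The developing brain makes most of its own cholesterol, since lipoproteins of the blood do not cross the mature blood-brain barrier.

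Reads came from the 3′ ends of polyadenylated transcripts, so that a transcript gives about the same number of reads whatever its length. The values are read counts divided by a size factor of each library and are called normalized read counts here. The libraries held 4732781 to 11645213 reads on genes, and each of the 8 genes had at least 52 reads in every library. The share of *Gm42418*, an RNA gene that holds ribosomal RNA sequence, was 6.11% to 16.7% at E11.5, 9.78% to 15.0% at E14.5, 10.7% to 34.8% at 12 hours and 6.26% to 23.0% at 24 hours. Liver transcripts were present in some libraries of every stage, with sums over 13 markers from 1.57 to 1485. All 8 markers of apical progenitors and all 8 of postmitotic neurons had means of at least 10 at each stage. No difference in the *Cep135* transcript between genotypes passed the test. E11.5 mutants 1 to 3 had 246, 336 and 329 normalized read counts, and E11.5 controls 1 to 3 had 293, 375 and 318. At E14.5 the mutants (embryos 1, 2 and 6) had 224, 173 and 283 and the controls (embryos 3, 4 and 5) had 171, 176 and 271. For *Cep135*, the log2 fold change of mutant over control was -0.12 (SE 0.16, adjusted p = 0.856 from limma) at E11.5, 0.14 (SE 0.22, adjusted p = 0.865) at E14.5, -0.15 (SE 0.24, adjusted p = 0.941) at 12 hours and 0.15 (SE 0.21, adjusted p = 0.850) at 24 hours. Reads from the 3′ end do not cover the deletion and do not check the genotypes.

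The 8 genes lie on 6 chromosomes of GRCm38. *Hmgcs1* (ENSMUSG00000093930), *Idi1* (ENSMUSG00000058258), *Sqle* (ENSMUSG00000022351) and *Dhcr7* (ENSMUSG00000058454) are on the plus strand, at chr13:119690379-119708260, chr13:8885501-8892451, chr15:59315077-59331192 and chr7:143823145-143848410. *Fdft1* (ENSMUSG00000021273) at chr14:63145150-63179578 and *Fdps* (ENSMUSG00000059743) at chr3:89093588-89101959 are on the minus strand. *Insig1* (ENSMUSG00000045294), at chr5:28071363-28078662 on the plus strand, and *Cyp51* (ENSMUSG00000001467), at chr5:4081145-4104746 on the minus strand, share their chromosome with *Cep135*, at 48.5 and 72.5 Mb from it. *Fdps* overlaps 2 annotated genes of its own strand, *Gm43738* and *Gm22935*, and its reads could be counted differently there, whereas the other 7 overlap no gene of their strand.

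The upstream sequences are shown because the 8 genes differed between stages in the same direction, as described next. RefSeq (GRCm38.p6) gave promoter windows for 5 of the 8, *Hmgcs1*, *Idi1*, *Insig1*, *Cyp51* and *Dhcr7*. The 250 bases before each start were searched on both strands for the sterol regulatory element TCACNCCAC, for the related TCACGTGA, for CCAAT, the letters that NF-Y binds, and for GGGCGG, the letters that Sp1 binds. NF-Y and Sp1 act with SREBP at many sterol genes. No matches of these motifs overlapped each other in the 5 genes. The upstream sequences of *Hmgcs1*, *Insig1* and *Cyp51* read as follows on the strand of each gene, ending where an annotated transcript begins, with matches on either strand in capitals.
*Hmgcs1*, chr13:119690101-119690350, plus strand: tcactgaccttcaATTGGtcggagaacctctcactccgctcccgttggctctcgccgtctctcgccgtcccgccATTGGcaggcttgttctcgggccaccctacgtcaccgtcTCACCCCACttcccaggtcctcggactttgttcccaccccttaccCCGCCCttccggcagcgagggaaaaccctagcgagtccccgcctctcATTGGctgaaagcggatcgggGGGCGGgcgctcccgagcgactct
*Insig1*, chr5:28071162-28071362, plus strand: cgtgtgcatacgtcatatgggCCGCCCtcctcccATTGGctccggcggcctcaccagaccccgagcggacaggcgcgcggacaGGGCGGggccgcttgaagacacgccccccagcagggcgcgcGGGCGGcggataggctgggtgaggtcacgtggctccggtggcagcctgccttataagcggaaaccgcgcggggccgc
*Cyp51*, chr5:4104747-4104947, minus strand: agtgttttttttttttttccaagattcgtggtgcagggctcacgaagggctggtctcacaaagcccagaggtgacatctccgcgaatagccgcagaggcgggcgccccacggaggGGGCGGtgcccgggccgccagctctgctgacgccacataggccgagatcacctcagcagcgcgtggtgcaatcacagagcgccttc
*Hmgcs1* held the sterol regulatory element as TCACCCCAC, which starts 137 bases before the RefSeq start. TCACNCCAC was in 1 of the 5 genes, in 1 of their 7 windows and in 1.053% of all 32851 promoter windows. TCACGTGA was in 0 of the 5 genes and in 0.7854% of windows. CCAAT was in all 5 genes, for *Cyp51* in the bases after the stretch printed here, and so was GGGCGG. Counted by window, CCAAT was in 5 and GGGCGG in 6 of the 7 windows of these genes, against 33.85% and 32.74% of all windows. All matches of *Idi1* and the CCAAT matches of *Dhcr7* lay within the annotated gene. Of 11 other enzymes of the pathway with a window, CCAAT and GGGCGG were each in 10 and TCACNCCAC was in 0. These are exact matches of letters, and other variants of these elements were not searched for. A gene without a match may therefore still hold a variant, and binding was not measured.

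Over the 6 libraries of a stage, all 8 genes had their lowest mean in E14.5 cortex, a higher mean in E11.5 cortex and their highest means in culture. Neighbouring stages did not always separate. The ranges of E11.5 and E14.5 cortex overlapped for *Fdps* and *Fdft1*, those of E11.5 cortex and the 12-hour culture overlapped for *Idi1* and *Dhcr7*, and those of the 12-hour and 24-hour cultures overlapped for all 8. The plot by library has a bar for each genotype, and for *Fdft1* these bars do not keep the order of the cortices. Its mean was 584 in the E14.5 controls, against 551 in the E11.5 mutants and 512.5 in the E11.5 controls.

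**Figure D1:**
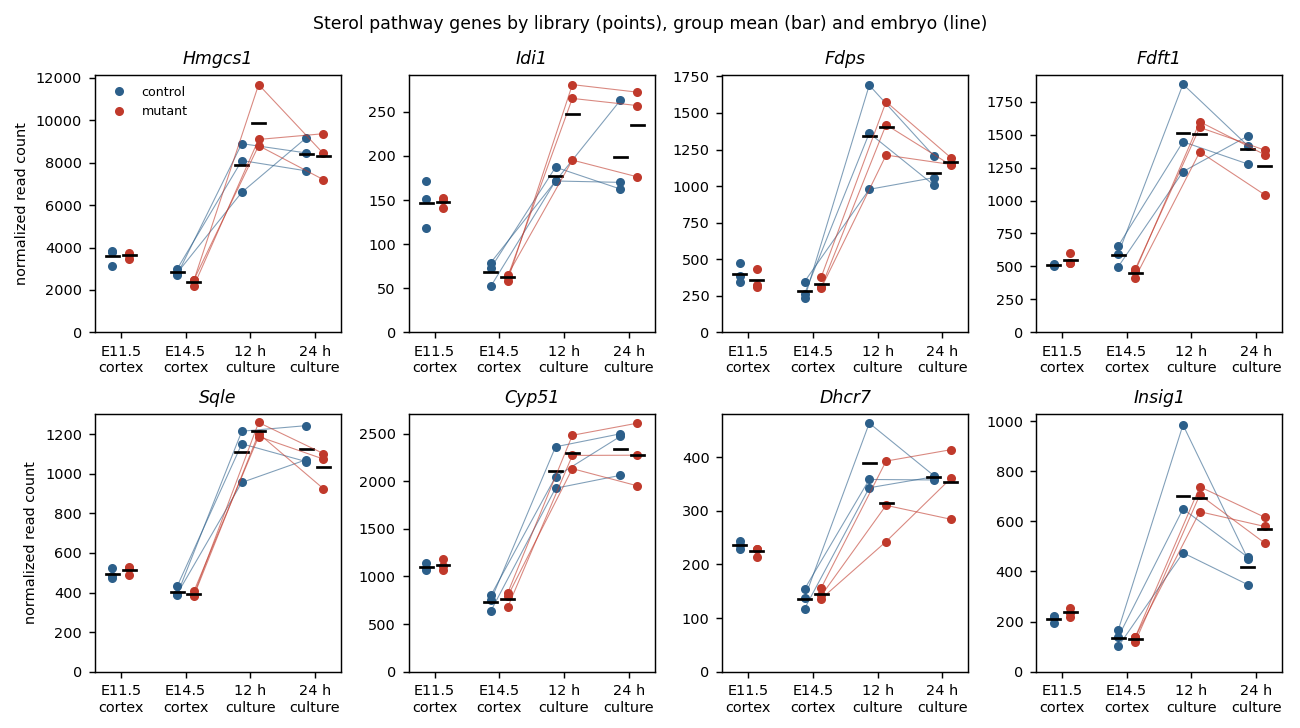
Normalized read count (linear vertical axis, from 0) of each of the 8 genes in every library, by stage and genotype, with a bar at each group mean of 3 libraries and lines joining libraries of the same embryo. In every panel the bars of both cultures are the highest. Those of the E14.5 cortices are the lowest except for *Fdft1*, where the E14.5 control bar lies above both E11.5 bars. Single libraries of neighbouring stages overlap for some genes. For *Hmgcs1* the libraries were at 2202 to 2985 in E14.5 cortex and 6607 to 11688 after 12 hours.

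*Hmgcs1* encodes HMG-CoA synthase, an enzyme of the first steps of the pathway. Its lowest, median and highest normalized read counts were 3114, 3709.8 and 3843 in E11.5 cortex, 2202, 2597 and 2985 in E14.5 cortex, 6607, 8854 and 11688 at 12 hours and 7207, 8449.8 and 9370.4 at 24 hours. Each culture therefore exceeded every cortex of either age.

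*Idi1* encodes isopentenyl diphosphate isomerase, which supplies the starter unit of the isoprenoid chain. It ran from 118 to 172 (median 151) in E11.5 cortex, from 52.3 to 79.1 (median 64.0) in E14.5 cortex, from 171 to 281 (median 191) at 12 hours and from 162 to 272 (median 217) at 24 hours. *Fdps* encodes farnesyl diphosphate synthase, which joins these units. It ran from 308 to 474 (median 366), 232 to 382 (median 308), 978 to 1689.7 (median 1391) and 1006 to 1205 (median 1146) at the same stages in turn. For *Idi1* the cultures were near the E11.5 cortices, and for *Fdps* they were far above both cortices.

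*Fdft1* encodes squalene synthase, the first enzyme committed to sterols, and *Sqle* encodes squalene epoxidase, which acts next and is a controlled step of the pathway. *Fdft1* ran from 506 to 599.9 (median 523) in E11.5 cortex, from 414 to 657 (median 488) in E14.5 cortex, from 1219 to 1882 (median 1499.8) at 12 hours and from 1045 to 1488 (median 1366) at 24 hours. *Sqle* ran from 473 to 527 (median 506), 384 to 431 (median 390.5), 956 to 1259 (median 1196) and 925 to 1244 (median 1073) in turn. The cortices of both ages lay together for *Fdft1* and apart for *Sqle*.

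*Cyp51* encodes lanosterol demethylase and *Dhcr7* encodes 7-dehydrocholesterol reductase, the last step of one branch of the pathway. *Cyp51* ran from 1071 to 1184 (median 1094) in E11.5 cortex, from 637 to 825 (median 770.0) in E14.5 cortex, from 1926 to 2482 (median 2201) at 12 hours and from 1952 to 2609 (median 2372) at 24 hours. *Dhcr7* ran from 215 to 243 (median 229), 118 to 157 (median 139.8), 243 to 464 (median 351) and 284 to 414 (median 362) in turn. The single 12-hour library of *Dhcr7* that reached down to the E11.5 cortices was mutant 6, at 243.

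*Insig1* encodes the protein of the endoplasmic reticulum that anchors the SREBP escort. It ran from 196 to 256 (median 219.9) in E11.5 cortex, from 101 to 167 (median 137) in E14.5 cortex, from 474 to 985 (median 678) at 12 hours and from 348 to 617 (median 486) at 24 hours. Its highest value, 985, was in the 12-hour culture of control 4.

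The first stage comparison asked how the cortex changed from E11.5 to E14.5. *Idi1*, *Insig1*, *Dhcr7*, *Cyp51*, *Hmgcs1* and *Sqle* fell, 6 of the 8, where 29.3% of 13650 genes tested were called lower and 23.8% higher. The same 6 had no overlap between the ages, against 14.9% of genes lower without overlap. The median log2 fold change of the 8 was -0.52, against -0.08 over all genes. These come from limma on log2(normalized count + 1) over the 12 cortices with a term for genotype, with Benjamini-Hochberg adjustment of p over all genes tested. *Idi1* fell by 1.17 on the log2 scale (SE 0.13, adjusted p = 1.57e-06), *Insig1* fell by 0.76 (SE 0.12, adjusted p = 5.8e-05) and *Dhcr7* fell by 0.71 (SE 0.095, adjusted p = 1.14e-05). The change was smaller for *Cyp51* at -0.58 (SE 0.080, adjusted p = 1.69e-05), *Hmgcs1* at -0.47 (SE 0.083, adjusted p = 0.000171) and *Sqle* at -0.34 (SE 0.073, adjusted p = 0.00114). The values were -0.30 for *Fdps* (SE 0.13, adjusted p = 0.0686) and -0.05 for *Fdft1* (SE 0.10, adjusted p = 0.686), which did not pass. *Fdps* passed when any of 4 libraries was left out, with adjusted p = 0.046 without E11.5 mutant 1, 0.036 without E11.5 mutant 3, 0.031 without E14.5 mutant 1 and 0.048 without E14.5 control 5. 

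*Srebf2* fell by 0.41 on the log2 scale from E11.5 to E14.5 (SE 0.078, adjusted p = 0.000334 from limma), from 800.1 ± 47.9 (SD, n = 6) to 601 ± 45.5 normalized read counts. The summed markers of postmitotic neurons were at 8819 to 13207 normalized read counts at E11.5 and 29955 to 42242 at E14.5. Those of intermediate progenitors were at 1151 to 1721 and 2472 to 2963, and those of apical progenitors at 14385 to 18131 and 9449 to 11292. Those of erythroid cells, at 48388 to 77489 and 27723 to 35348, and of the oligodendrocyte lineage, at 365 to 524 and 187 to 311, did not overlap between the ages either, whereas those of microglia, at 274 to 571 and 406 to 948, did. The part of these cells in the fall was not tested, and in bulk tissue fewer cells of a type and less RNA per cell cannot be told apart. The titles of all E14.5 libraries share a prefix that no E11.5 library has, so that age and prefix cannot be told apart.

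The next comparison set the 12-hour culture against the cortex of the same embryos, and answers how dissociation and the first hours in medium relate to these genes. All 8 genes rose, where 14.1% of 13601 genes tested were called higher and 16.1% lower, and all 8 had no overlap between cortex and culture, against 6.66% of genes higher without overlap. The median log2 fold change was 1.62 for the 8 and -0.06 for all genes. *Insig1* was 5.16-fold higher (log2 2.37, SE 0.16, adjusted p = 4.85e-08 from limma) and *Fdps* 4.46-fold higher (log2 2.16, SE 0.14, adjusted p = 2.81e-08). *Hmgcs1* was 3.37-fold higher (log2 1.75, SE 0.12, adjusted p = 4.85e-08) and *Idi1* 3.18-fold higher (log2 1.67, SE 0.17, adjusted p = 3.39e-06). *Cyp51*, *Fdft1* and *Sqle*, at 2.95-fold, 2.92-fold and 2.90-fold, lay close together (log2 SE 0.094, 0.12 and 0.092, adjusted p = 1.21e-08, 2.12e-07 and 1.12e-08). *Dhcr7* had the smallest rise of the 8, 2.45-fold (log2 1.29, SE 0.15, adjusted p = 1.12e-05). 

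Each of the 8 genes was higher at 12 hours than in the cortex in 6 of 6 embryos. The difference within an embryo was 2.21 to 2.57 for *Insig1* on the log2 scale, a narrow range, 1.49 to 2.86 for *Fdps* and 0.83 to 1.75 for *Dhcr7*. With the embryo as a block, the log2 fold changes of the 8 ran from 1.29 to 2.37 and the largest adjusted p was 5.75e-05.

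**Figure D2:**
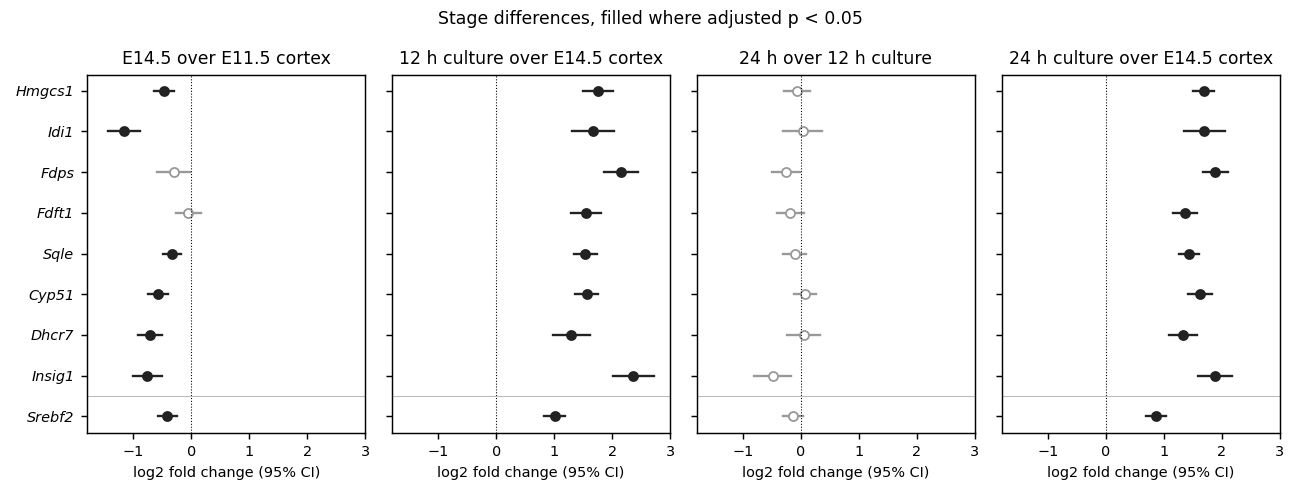
Log2 fold change (horizontal axis) with its 95% confidence interval for the 8 genes and for *Srebf2*, in E14.5 over E11.5 cortex, the 12-hour culture over E14.5 cortex, the 24-hour over the 12-hour culture, and the 24-hour culture over E14.5 cortex, filled where the adjusted p was under 0.05. Against cortex all 8 genes lie to the right of 0 at both culture times, between 1.29 and 2.37 at 12 hours, and between the culture times no point is filled.

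At 24 hours the 8 genes remained above the cortex. All 8 were called higher, where 20.1% of 13579 genes tested were called higher and 21.5% lower, and none overlapped the cortices, against 8.96% of genes higher without overlap. This comparison uses the same 6 cortices as the 12-hour one, so that the values of both depend on them. *Fdps* was 3.70-fold, *Insig1* 3.68-fold, *Idi1* 3.24-fold and *Hmgcs1* 3.21-fold higher. *Cyp51* was 3.09-fold, *Sqle* 2.70-fold, *Fdft1* 2.57-fold and *Dhcr7* 2.53-fold higher, and the adjusted p from limma lay between 2.51e-10 and 4.54e-07 for the 8. The median log2 fold change was 1.66, against -0.05 over all genes, and each gene was higher in 6 of 6 embryos.

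Between 12 and 24 hours of culture 0 of the 8 genes passed limma's threshold and 2 had an unadjusted p under 0.05, where 0.15% of 13359 genes were called higher, 0.142% lower, and 1288 had an unadjusted p under 0.05. edgeR and DESeq2 called 0 of the 8 as well. *Insig1* had the largest difference. In embryos 1, 2 and 6 it was 738, 639 and 706 normalized read counts at 12 hours and 617, 580.0 and 514 at 24 hours, and in embryos 3, 4 and 5 it was 649.7, 985 and 474 and then 457, 452 and 348. It was lower at 24 hours in 6 of 6 embryos, by values of -1.12 to -0.14 on the log2 scale. The log2 fold change of *Insig1* was -0.49 (SE 0.15, unadjusted p = 0.00445, adjusted p = 0.238 from limma), and the adjusted p was 0.0606 with the embryo as a block, 0.219 with edgeR and 0.0787 with DESeq2. Control 4 had the widest step, and without its 12-hour library the value was -0.34. It was -0.20 with a term for the share of *Gm42418*. *Fdps* had a log2 fold change of -0.27 (SE 0.11, adjusted p = 0.468), and the other 6 lay between -0.18 and 0.07.

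*Srebf2* moved in the same direction as the 8 genes in culture. It was 601 ± 45.5 normalized read counts (SD, n = 6) in E14.5 cortex, 1208 ± 90.6 at 12 hours and 1094 ± 30.6 at 24 hours. Its log2 fold change over cortex was 1.01 at 12 hours (SE 0.086, adjusted p = 4.83e-07 from limma) and 0.87 at 24 hours (SE 0.079, adjusted p = 1.89e-07).

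Cell markers changed between cortex and culture as well. The sum of 7 microglia markers was 406 to 948 in E14.5 cortex, 6.31 to 42.5 at 12 hours and 6.98 to 62.5 at 24 hours, and 0 of the 7 had a mean of at least 10 in either culture. The sum of 6 endothelial markers was 968 to 1105 in cortex, 31.1 to 110.2 at 12 hours and 24.6 to 107 at 24 hours. Neuronal markers overlapped between stages, at 29955 to 42242, 28373 to 45425 and 28055 to 42180, and so did those of apical progenitors, at 9449 to 11292, 8214 to 11486 and 9389 to 13278. Intermediate progenitor markers were at 2472 to 2963 in cortex, 1667 to 2086 at 12 hours and 1555 to 1897 at 24 hours. Those of the oligodendrocyte lineage were at 187 to 311, 298 to 578 and 847 to 1491, those of choroid plexus at 856 to 7704, 1098 to 16125 and 874 to 16770.4, and those of erythroid cells at 27723 to 35348, 54682 to 125398 and 33261 to 61453. Liver markers were at 7.83 to 1039, 1.57 to 1485 and 6.25 to 422, with *Afp* at 0 in all 12-hour libraries. The part of these cells in the rise of the 8 genes was not tested, except that with a term for liver transcripts the log2 fold changes of the 8 were 1.34 to 2.35 at 12 hours and 1.33 to 1.89 at 24 hours. With a term for the share of *Gm42418* they were 1.23 to 1.998 and 1.33 to 1.90, and all 8 stayed past the threshold with either term.

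The other genes of the pathway were taken from lists of enzymes, uptake genes and SREBP regulators. All 13 other synthesis enzymes were tested. Of all genes tested, 29.3% were called lower and 23.8% higher with age. Over cortex, 14.1% were called higher and 16.1% lower at 12 hours, and 20.1% higher and 21.5% lower at 24 hours. From E11.5 to E14.5, 7 of the 13 fell and 0 rose, with a median log2 fold change of -0.35, among them *Msmo1* at -0.82, *Nsdhl* at -0.80 and *Hsd17b7* at -0.63, all enzymes that turn lanosterol into cholesterol. At 12 hours 12 of the 13 rose and 0 fell over E14.5 cortex, with a median of 1.43. *Lss*, lanosterol synthase, was at 2.10, *Msmo1* at 2.06 and *Hsd17b7* at 1.85, and the remaining gene *Ebp* had a value of 0.55 that did not pass. At 24 hours all 13 rose, with a median of 1.18, among them *Msmo1* at 2.02, *Lss* at 1.92 and *Nsdhl* at 1.42.

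Genes of uptake and intracellular transport were divided. Of 11 tested, 4 rose and 6 fell from E11.5 to E14.5, where 23.8% of all genes were called higher and 29.3% lower. The receptors *Vldlr* (log2 fold change 1.43), *Lrp8* (1.42) and *Lrp1* (0.52) and the lysosomal transporter *Npc1* (0.36) rose, whereas *Mylip* (-1.36), which encodes a ubiquitin ligase, and the receptor *Scarb1* (-0.73) were among those that fell. At 12 hours 5 of the 11 rose over cortex, among them the sterol carrier *Stard4* (1.40) and the receptor *Vldlr* (0.65), and 2 fell, *Lipa* (-2.52), a lysosomal lipase, and *Npc2* (-0.40). At 12 hours 4 of the 11 passed in place of 7 once the share of *Gm42418* was a term of the fit. Of the uptake genes called higher in culture, 1 had a mean under 10 in cortex and entered these tests through the cultures. At 24 hours 6 rose, among them *Stard4* (1.49) and *Vldlr* (0.69), and 1 fell, *Lipa* (-2.004). Of all genes, 14.1% were called higher and 16.1% lower at 12 hours, and 20.1% higher and 21.5% lower at 24 hours. Of 6 SREBP regulators, 3 fell and 0 rose with age, *Srebf1* (-0.90), *Srebf2* and the protease gene *Mbtps1* (-0.41). Only *Srebf2* of the 6 passed at 12 hours, where quantile normalization or a fit of all 24 libraries called 3, DESeq2 or a term for liver transcripts called 2, and leaving out the culture of mutant 2 called 2. At 24 hours *Srebf2* and *Mbtps2* (0.56) rose and *Mbtps1* (-0.24) fell. Between 12 and 24 hours 0 genes of any list passed with limma, and 2 of the 13 enzymes, 2 of the uptake genes and 0 of the regulators had an unadjusted p under 0.05.

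**Figure D3:**
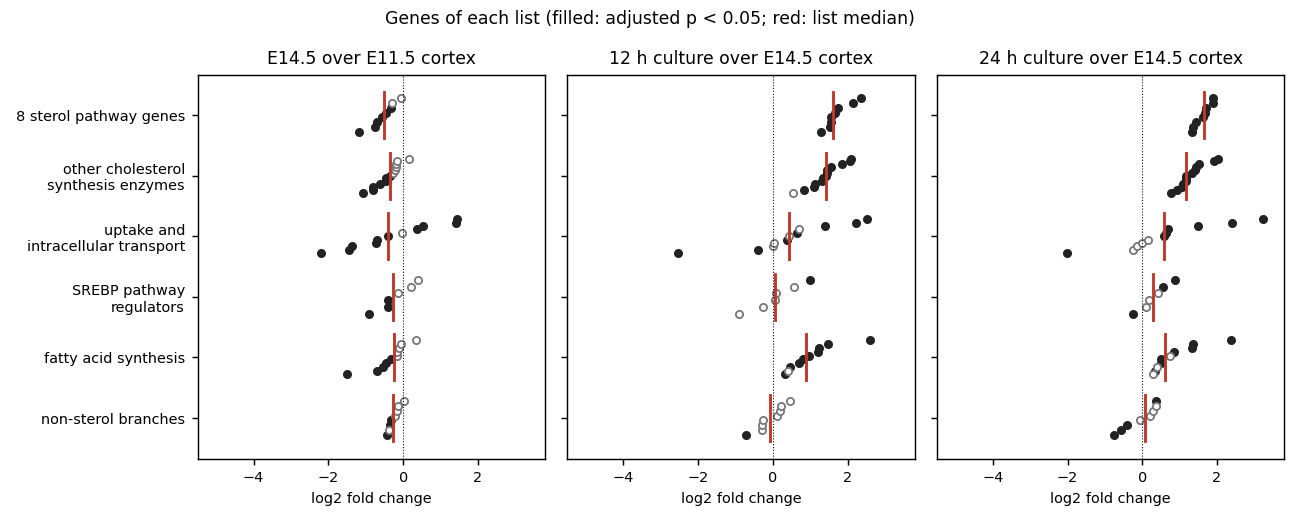
Log2 fold change of each gene (points, filled where the adjusted p was under 0.05) and the median (red line) of the 8 genes and of 5 lists, in E14.5 over E11.5 cortex, the 12-hour culture over cortex and the 24-hour culture over cortex. At 12 hours the 8 genes and the other 13 synthesis enzymes lie on the right of 0, with medians of 1.62 and 1.43, and 1 of the 13 is open.

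The genotype comparison asked whether the mutants differed from controls of the same stage. At each stage 0 of the 8 genes passed limma's threshold. The share of all genes called was 0.0149% of 13406 at E11.5, 0.0736% of 13583 at E14.5, 0% of 13389 at 12 hours and 0.271% of 13300 at 24 hours, so that few genes of any kind were called. At an unadjusted p under 0.05 there were 0, 1, 0 and 1 of the 8 genes, against 991, 1236, 650 and 1414 of all genes. edgeR and DESeq2, run at the last 3 of these stages, called 0 of the 8. The p-values set the difference of the group means against the spread within the 3 mutants and within the 3 controls of a stage. In limma the spread of each gene is drawn toward a trend over all genes tested.

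At E11.5 the log2 fold changes of mutant over control lay between -0.18, for *Fdps*, and 0.16, for *Insig1*, and no 95% confidence interval reached beyond -0.55 or 0.44. *Fdft1* was the 1 gene of the 8 whose groups did not overlap, where 13.3% of genes did not overlap. Mutants 1 to 3 had 599.9, 524 and 528 normalized read counts of it and controls 1 to 3 had 506, 521 and 511, a log2 fold change of 0.10 (SE 0.11, adjusted p = 0.825). The summed markers of endothelium were at 1247 to 1428 in these mutants against 1069.6 to 1204 in these controls, those of choroid plexus at 959 to 1098 against 773 to 905 and those of liver at 15.6 to 846 against 7.0 to 14.2, and their part in this difference was not tested.

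At E14.5 the values lay between -0.36 and 0.26 and the intervals between -0.68 and 0.64. *Fdft1* and *Hmgcs1* were lower in every mutant than in any control, 2 of the 8, where 13.7% of genes did not overlap. Mutants 1, 2 and 6 had 478, 414 and 464 normalized read counts of *Fdft1*, and controls 3, 4 and 5 had 499, 657 and 596. The log2 fold change of *Fdft1* was -0.36 (SE 0.14, unadjusted p = 0.0271, adjusted p = 0.510). For *Hmgcs1* the mutants had 2202, 2481 and 2463 against 2799.9, 2985 and 2714 in the controls, a log2 fold change of -0.25 (SE 0.12, adjusted p = 0.552). *Fdps* had the highest value, 0.26 (SE 0.17, adjusted p = 0.665), with overlapping groups. In the same libraries the sum of neuronal markers was 29955 to 32084 in mutants and 39456 to 42242 in controls, that of microglia markers 756 to 948 and 406 to 472, and that of oligodendrocyte lineage markers 234 to 311 and 187 to 232, and their part in these differences was not tested.

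At 12 hours the values lay between -0.31, for *Dhcr7*, and 0.46, for *Idi1*, and the ends of the 8 intervals between -0.81, for *Dhcr7*, and 0.97, for *Idi1*. Mutants 1, 2 and 6 had 281, 265 and 195 normalized read counts of *Idi1* and controls 3, 4 and 5 had 187, 171 and 172, without overlap, where 11% of genes did not overlap. The log2 fold change of *Idi1* was 0.46 (SE 0.23, adjusted p = 0.913). For *Hmgcs1* the mutants had 9101, 8806 and 11688 against 6607, 8106 and 8903 in the controls, a log2 fold change of 0.32 (SE 0.15, adjusted p = 0.913), and its groups overlapped in 1 pair of libraries. In these cultures the summed markers of 5 cell types did not overlap between the genotypes. Those of choroid plexus were at 4720 to 16125 in mutants against 1098 to 3786 in controls, of erythroid cells at 54682 to 80294 against 86884 to 125398, and of intermediate progenitors at 1813 to 2086 against 1667 to 1793. Those of endothelium were at 81.0 to 110.2 against 31.1 to 65.8 and of microglia at 6.31 to 15.6 against 18.8 to 42.5, and the part of these cells in the values of *Idi1* and *Hmgcs1* was not tested.

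At 24 hours the values lay between -0.16 and 0.45 and the intervals between -0.45 and 0.78. Mutants 1, 2 and 6 had 617, 580.0 and 514 normalized read counts of *Insig1*, while controls 3, 4 and 5 had 457, 452 and 348. It was the 1 gene of the 8 without overlap, where 16.2% of genes did not overlap, and its log2 fold change was 0.45 (SE 0.15, unadjusted p = 0.0107, adjusted p = 0.289). At this stage the share of *Gm42418* was 20.5% to 23.0% in mutants and 6.26% to 13.9% in controls, the reads on genes were 7903426 to 11645213 and 4732781 to 5709443, and the summed liver markers were 120.4 to 422 and 6.25 to 8.43. The summed markers of apical progenitors were at 12079 to 13278 against 9389 to 10593, and those of choroid plexus at 4995 to 16770.4 against 874 to 3619.8. None of these 5 measures overlapped between the genotypes, so that they and the genotype cannot be told apart in these 6 libraries. With a term for the share of *Gm42418* the value of *Insig1* was 0.037 (SE 0.31), and with a term for liver transcripts it was 0.95 (SE 0.70).

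**Figure D4:**
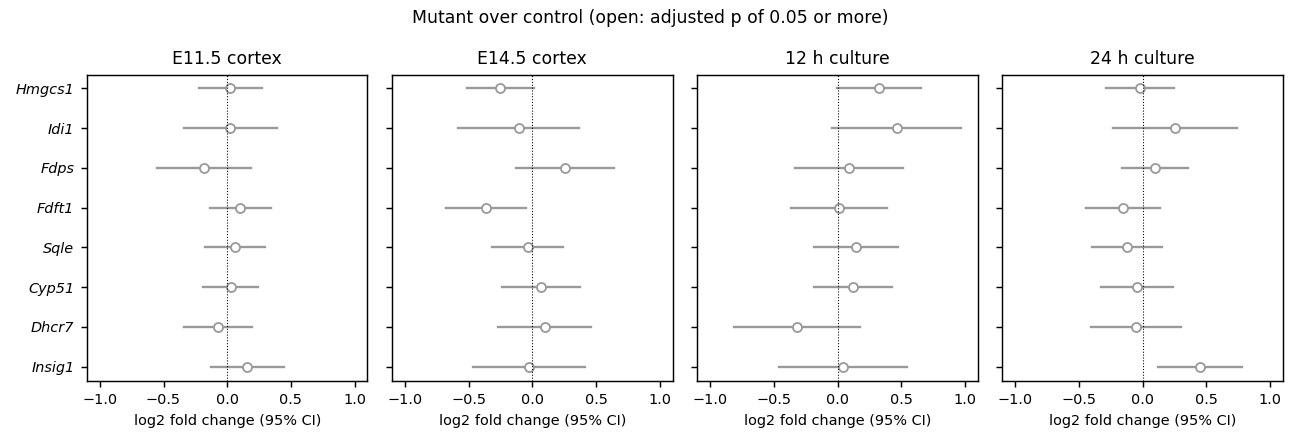
Log2 fold change of mutant over control (horizontal axis) with its 95% confidence interval for the 8 genes in E11.5 cortex, E14.5 cortex and the 12-hour and 24-hour cultures, with 3 mutants and 3 controls in each. Every point is open, since no adjusted p was under 0.05, and the values of the 8 genes run from -0.36 to 0.46.

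Over the 12 cortices of both ages, with a term for age, 0 of the 8 genes passed, where 0.139% of 13650 genes were called and 1189 had an unadjusted p under 0.05. The log2 fold changes of the 8 lay between -0.13 and 0.06, and no interval reached beyond -0.35 or 0.32. A change of 1.5-fold in either direction, as an average over both ages, is outside all of these intervals. At E14.5 alone the interval of *Fdft1* reached down to 0.625-fold and that of *Fdps* up to 1.56-fold, so that such a change is not outside them. For *Srebf2* the genotype values of the 4 stages lay between -0.10 and 0.13, and none passed the test.

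Whether the genotype difference itself changed between stages was tested with a product term. None of the 8 genes passed by age, by 12 hours against cortex, by 24 hours against 12 hours or by 24 hours against cortex, and 0% of 13650, 13601, 13359 and 13579 genes tested were called by limma, with 1070, 724, 318 and 836 at an unadjusted p under 0.05. *Fdft1* had an unadjusted p of 0.0161 by age (log2 difference -0.46, adjusted p = 0.620), from a value of 0.10 at E11.5 to -0.36 at E14.5. *Hmgcs1* had an unadjusted p of 0.0120 by 12 hours against cortex (log2 difference 0.58, adjusted p = 0.793), from -0.25 in cortex to 0.32 in culture. These were the only 2 of 32 product terms of the 8 genes with an unadjusted p under 0.05.

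The mean profile of the 8 genes was also used to find other genes like it. Group means on the log2 scale over the 8 groups of stage and genotype were centred, and genes with a mean of at least 50 were ranked by the root-mean-square difference from the mean profile of the 8. Of 9661 genes, those closest outside the 8 included *Cars* (0.137), *Gm37899* (0.142), *Elovl6* (0.144), *Msmo1* (0.160), *Gm43336* (0.164), *Stard4* (0.185) and *Arid5b* (0.192), where smaller is closer. *Msmo1* is an enzyme of the pathway, *Stard4* carries sterols and *Elovl6* elongates fatty acids, while *Cars* encodes a tRNA synthetase. Of the 8 genes themselves *Cyp51* (0.0905), *Hmgcs1* (0.0924) and *Sqle* (0.0974) were nearest to their mean. *Fdft1* (0.203), *Insig1* (0.251), *Dhcr7* (0.263) and *Fdps* (0.271) were farther from it than the outside genes named here, and *Idi1* (0.290) was farthest. Its profile was set apart by a deeper E14.5 level and cultures nearer to E11.5.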

How the data were processed

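Total RNA of the 24 samples was made into QuantSeq 3′ libraries. Per the labels and the study's methods, the authors checked reads with FastQC 0.11.7, aligned them to GRCm38 with TopHat2 2.0.10 (Bowtie 1.0.0, SAMtools 0.1.19), allowing 3 mismatches and 20 multihits, and counted them by strand with HTSeq 0.6.1. The values deposited by the authors are a signal, gene counts divided by DESeq2 size factors (version not given in the sources used here). The smallest value above 0 of each library was taken as 1 read. On that scale 100% of 484666 values above 0 in the 24 libraries were whole reads within 0.01 read.

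Differences were tested with limma 3.58.1 (R 4.3.3, intensity trend, two-sided) on log2(value + 1) among genes whose mean was 10 or more, with Benjamini-Hochberg adjustment over all genes tested and a threshold of 0.05. A fold change on this scale understates the change of low genes. The 8 genes, the lists and the rule for other genes (*Srebf2*, *Cep135*, every list gene called between genotypes, up to 4 per list and direction in each stage comparison, and the 8 closest profiles) were chosen with earlier results of these data known. Some genes that this rule names are not reported here, while counts and medians of a list cover all its genes. E14.5 numbers pair libraries of the same animal by the labels, and deviations from group means correlated from -0.114 to 0.235 (median 0.137) over 18 pairs. Alternatives changed the pseudocount, filter, scaling, threshold, samples fitted, test (edgeR 4.0.16, DESeq2 1.42.0), embryo block, title prefix, embryo sex and the libraries left out, and terms for liver transcripts and *Gm42418* were added after the data were seen. The code was tested on simulated data.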

Additional observations from a re-analysis of the deposited data

How the results depend on the processing

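All 22 differences of the 8 genes that passed the threshold kept their direction and stayed past it in all 520 recomputations, and 6 to 7 of the 8 were called with age and 8 of 8 at both culture times. With the embryo as a replicate block, the 8 genes ran from 1.29 to 2.37 at 12 hours and 1.34 to 1.89 at 24 hours over cortex, 0 of 8 passed between culture times, and the block changed no call of the 8. Of 1680 recomputations of the 82 differences that did not pass, 1585 kept direction and call, 5 passed, all *Fdps* with age, and 90 changed sign, and the cause was not tested. edgeR and DESeq2 were not run for comparisons with E11.5. Of 1650 recomputed list counts, 1624 stayed within 1.5 times, 10 were smaller and 16 larger. The 95% confidence intervals of genotype differences at 12 hours ran, for example, from -0.043 to 0.97 for *Idi1* and from -0.81 to 0.18 for *Dhcr7*, which limits what 3 embryos in a group could show.

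The log2 values that changed sign were all from differences that did not pass. With quantile normalization the genotype values were *Hmgcs1* -0.0057 and *Idi1* -0.0025 at E11.5, *Hmgcs1* 0.067 and *Cyp51* 0.029 at 24 hours, and *Sqle* -0.00014 and *Dhcr7* -0.0086 over the cortices, and with median-of-ratios rescaling *Sqle* -0.0022 and *Dhcr7* -0.0019 over the cortices. With a term for embryo sex they were *Cyp51* -0.0039 at E11.5 and -0.10 at E14.5, *Fdps* -0.11 at 12 hours, *Hmgcs1* 0.0071 and *Idi1* -0.13 at 24 hours, and *Idi1* 0.035, *Fdps* -0.0042, *Cyp51* -0.025 and *Dhcr7* -0.022 over the cortices. With edgeR they were *Insig1* -0.0027 and *Fdft1* -0.00039 at 12 hours and *Hmgcs1* 0.00093 at 24 hours, and with DESeq2 *Insig1* -0.0014 and *Hmgcs1* 0.0014. With a term for liver transcripts they were *Hmgcs1* 0.32, *Cyp51* 0.17 and *Dhcr7* 0.22 at 24 hours, and *Hmgcs1* 0.00063 and *Idi1* -0.063 between culture times. With a term for *Gm42418* they were *Hmgcs1* 0.078, *Idi1* -0.43 and *Fdps* -0.10 at 24 hours.

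Leaving out 1 library at a time changed the sign of further values that did not pass. For genotype at E11.5 the ranges were -0.073 to 0.078 for *Hmgcs1*, -0.13 to 0.14 for *Idi1* and -0.015 to 0.057 for *Cyp51*. At E14.5 they were -0.063 to 0.010 for *Sqle*, -0.29 to 0.0086 for *Idi1*, -0.22 to 0.14 for *Insig1*, -0.023 to 0.16 for *Cyp51* and -0.0045 to 0.19 for *Dhcr7*. At 12 hours they were -0.21 to 0.32 for *Insig1*, -0.13 to 0.18 for *Fdft1* and -0.12 to 0.27 for *Fdps*. At 24 hours they were -0.11 to 0.083 for *Hmgcs1*, -0.15 to 0.061 for *Cyp51* and -0.18 to 0.092 for *Dhcr7*. Over the cortices they were -0.0072 to 0.038 for *Sqle*, -0.12 to 0.017 for *Idi1*, -0.012 to 0.15 for *Insig1*, -0.044 to 0.12 for *Fdps* and -0.043 to 0.043 for *Dhcr7*. With age *Fdft1* ran from -0.12 to 0.00079, and between culture times *Hmgcs1* ran from -0.14 to 0.0086, *Idi1* from -0.082 to 0.13 and *Dhcr7* from -0.049 to 0.12. The product terms by age ran from -0.31 to 0.017 for *Idi1* and -0.049 to 0.13 for *Cyp51*. Those by 12 hours against cortex ran from -0.18 to 0.35 for *Insig1*, -0.38 to 0.017 for *Fdps* and -0.033 to 0.15 for *Cyp51*, and those by 24 against 12 hours from -0.37 to 0.0085 for *Idi1* and -0.18 to 0.22 for *Fdps*.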

Other observations

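Of 9 listed genes of cholesterol efflux and oxysterol response, some had low values in culture and others changed less. Mean normalized read counts of *Abcg4* were 26.6 in E14.5 cortex, 21.6 at 12 hours and 22.5 at 24 hours. Those of *Nr1h2* were 117, 106 and 122 in turn, and those of *Soat1* were 190, 153 and 162. The genes with low values in culture are given next. *Apoe*, which encodes apolipoprotein E, was at 672 to 1368 normalized read counts in E14.5 cortex, 182 to 513 at 12 hours and 94.2 to 575 at 24 hours. Its log2 fold changes over cortex, -1.29 and -2.02, passed limma's threshold. *Abca1*, a cholesterol exporter that is induced by oxysterols, was at 107 to 153 in cortex, 4.70 to 31.4 at 12 hours and 0 to 7.09 at 24 hours. *Abcg1*, another exporter, was at 16.4 to 35.3, 0 to 11.4 and 1.69 to 10.001, and *Cyp46a1*, the neuronal cholesterol 24-hydroxylase, at 39.9 to 75.7, 0 to 13.7 and 0.873 to 23.6. These 3 genes are given as values with no test, because each had a mean under 10 in at least 1 culture and entered that comparison through the cortex. From E11.5 to E14.5, *Abca1* (log2 fold change 1.02), *Abcg1* (0.66), *Cyp46a1* (0.63) and *Apoe* (0.49) rose and *Soat1*, which esterifies cholesterol, fell (-0.56), 5 genes in all, of which 1 passed with all 24 libraries in one fit. With age, 23.8% of all genes tested were called higher and 29.3% lower. Microglia and endothelial markers, given with the culture comparison, were also lower in culture, and their part in these values was not tested.

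Fatty acid synthesis, the pathway controlled by SREBP1, rose in culture in 9 of 10 genes tested at 12 hours and 7 of 10 at 24 hours, with 0 lower. Of all genes tested, 14.1% were called higher at 12 hours and 20.1% at 24 hours. Only 4 of the 10 passed at 12 hours with a term for the share of *Gm42418*. *Scd1*, a desaturase, had values of 2.61 and 2.36, *Elovl6* 1.49 and 1.36, and *Fasn*, fatty acid synthase, 1.23 and 1.33. *Fads2* was at 1.21 at 12 hours and *Acaca*, acetyl-CoA carboxylase, at 0.85 at 24 hours. With age 5 of the 10 fell, among them *Scd1* (-1.51), *Scd2* (-0.69), *Elovl6* (-0.54) and *Fads1* (-0.47). The 8 genes of the branches that leave the mevalonate pathway before squalene did not move as a group. Of all genes tested, 29.3% were called lower with age, 16.1% lower at 12 hours, and 20.1% higher and 21.5% lower at 24 hours. At 12 hours 1 of the 8 fell, *Dhdds* (-0.73), and at 24 hours *Ggps1* (0.36) rose and *Coq2* (-0.77), *Fntb* (-0.58) and *Dhdds* (-0.40) fell, while 3 of the 8 fell with age, a count that was 0 without E11.5 mutant 1, 1 without E11.5 mutant 3 or E14.5 mutant 1, and 1 with all 24 libraries in one fit. The count at 12 hours was 2 without the culture of mutant 6 or control 3 and 0 with the *Gm42418* term.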
